A study of Mus musculus with 2 samples.

Results

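Vcan F13a1 cells of the malignant pleural effusion are macrophages with much complement C1q RNA that also carried more RNA of Vcan, F13a1, F10 and Ms4a8a than of a second gene set led by Plac8. They numbered 113 of 3963 cells, 87 of 1116 in library 1 and 26 of 2847 in library 2. They were chosen by their own counts. Of the cells with at least 300 genes and at most 10% mitochondrial UMIs, a member had at least 10 UMIs of C1qa, C1qb and C1qc together. It had at most 1 UMI of Folr2, Cbr2 and Cd163 (together the Folr2 sum), fewer than 5 of the resident macrophage genes Prg4, Alox15, Serpinb2, Cd5l and Fabp4, and none of the lymphocyte genes Cd3d, Cd3e, Cd3g and Cd79a. The neutrophil genes S100a8, S100a9 and Retnlg made up under 2% of its UMIs. Its UMIs of Vcan, F13a1, F10 and Ms4a8a (the Vcan sum) numbered at least 2 and exceeded those of Ms4a4c, Plac8, Mnda, Zbp1 and Rtp4 (the Plac8 sum). The levels of these genes are therefore given as a description and support nothing.

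The series holds 2 droplet 3' RNA libraries of 1 group of mice, and no animal without tumour is part of it. Mice were given 150000 cells of LLC (Lewis lung carcinoma, a mouse tumour line) in 100 µl PBS by intrapleural injection. The pleural fluid was taken after 10 days, and live leukocytes with the myeloid integrin CD11b (CD45+ CD11b+) were sorted from it after red cell lysis. By its title the study concerns efferocytosis, in which phagocytes engulf dying cells, and TIMP1, which is secreted and blocks matrix metalloproteinases. No strain, sex, age or number of pooled animals is given in the sources used here.

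Monocytes that leave the blood for an inflamed cavity lose Ly6c2, take up C1q, Apoe and other macrophage genes over days, and can end as cells much like resident macrophages. Versican (Vcan) is a large matrix proteoglycan, F13a1 encodes the A subunit of coagulation factor XIII, which crosslinks fibrin, and F10 encodes coagulation factor X. Ms4a8a is a membrane protein of the Ms4a family. Chil3, also called Ym1, is a secreted chitinase-like protein abundant in mouse monocytes and alternatively activated macrophages, and Bnip3 is a mitochondrial protein induced in low oxygen.

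Library 1 held 11543829 UMIs (unique molecules counted) over 1141 barcodes and library 2 held 20322996 over 2908, with medians per barcode of 9894 and 1954.5. The members were of similar depth in both, with a median of 9856 UMIs (range 4204 to 17728) and 2589 genes in library 1, and 9820.5 UMIs (646 to 13687) and 2757 genes in library 2. Their summed counts were 861502 and 219748 UMIs, so that library 2 resolves low genes less finely. The libraries did not share all their animals. Y-linked RNA without Xist was found in 54 of 87 members of library 1 and 1 of 26 of library 2, and Xist without Y-linked RNA in 0 of 87 and 23 of 26. The libraries shared 4 barcodes, none of a member. Over all kept cells, Y-linked RNA without Xist was found in 767 of 1116 and 109 of 2847, and Xist without Y-linked RNA in 0 and 1298. Nothing says that each library was 1 animal. Differences of animal, of sex and of technique between the libraries cannot be told apart, and no p-value is given.

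The members made up 7.80% of the cells of library 1 (exact 95% binomial interval 6.29% to 9.53%) and 0.913% of library 2 (0.597% to 1.34%). Intervals here and below cover counting error only. This gap arose almost entirely at the last clause of the rule. All earlier clauses, the minimum of 2 UMIs in the Vcan sum included, left 110 cells in library 1 and 275 in library 2, and the comparison of the Vcan sum with the Plac8 sum then removed 23 of 110 and 249 of 275. The Plac8 sum was higher in library 2 in every population measured. In UMIs per 1e6 UMIs of a population in its library (CPM), it was 679 in the members of library 1 and 2448 in those of library 2, and over all other kept cells it was 1308 and 5748. The S100a8-rich cells, which have at least 10% of their UMIs in S100a8, S100a9 and Retnlg, had 393 and 2735 CPM. Zbp1 and Rtp4 are interferon-induced genes. When each sum was first divided by its mean over the C1q, Folr2-low cells of its own library, a choice made after the data were seen, 71 and 137 cells qualified. Of the cells that qualified under this scaled clause, 71 and 26 were members as defined. The calls that held under it are given for each comparison below. As the cells overlap and called genes were picked for large ratios, a kept sign was in large part set in advance.

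**Figure D1:**
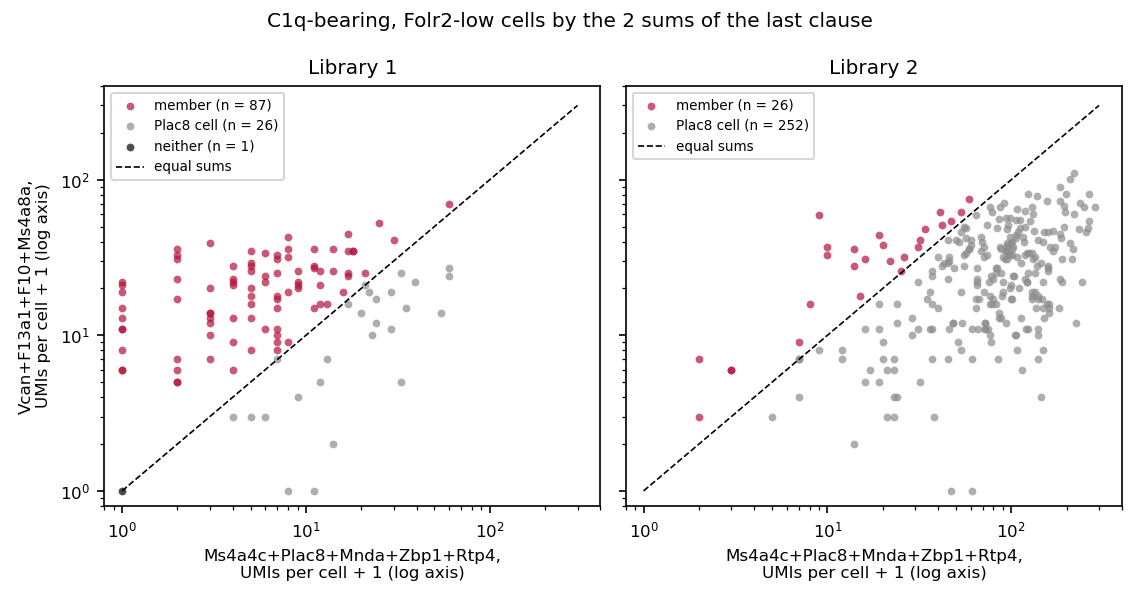
Vcan sum (vertical axis) against Plac8 sum (horizontal axis) of each cell that met the clauses on the other genes, both as UMIs plus 1 on log axes, in library 1 and library 2; the dashed line marks equal sums and members lie above it. Members are 87 of the 114 cells shown in library 1 and 26 of the 278 in library 2.

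At the edge of the rule, 21 members of library 1 and 7 of library 2 had a Vcan sum only 1 to 5 UMIs over the Plac8 sum, and they held 1780 and 1676 CPM of Chil3. The cells that fell short by 0 to 5 UMIs, 8 and 12 of them, held 1198 and 1440 CPM. Cells outside only for 5 to 9 UMIs of C1q numbered 11 and 7 (2882 and 1568 CPM of Chil3), and those outside only for a Folr2 sum of 2 numbered 14 and 6 (743 and 1145 CPM). Depth also enters: with every cell thinned to 2000 UMIs, 75 and 18 cells qualified, of which 35 and 4 were among the members as defined, and 1421 of 2847 cells of library 2 were too shallow to be judged.

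The 4 genes of the Vcan sum were carried together by most members: 50 of 87 and 19 of 26 had UMIs of all 4, and 27 and 4 had 3 of them. Vcan (GRCm38, chr13:89655312-89742509, minus strand) had 0 to 27 UMIs per member (median 6) in library 1 and 0 to 34 (median 11) in library 2, summed to 642 and 1329 CPM. F13a1 (chr13:36867178-37050244, minus strand) reached 849 and 1597 CPM, Ms4a8a (chr19:11067471-11081102, minus strand) 358 and 605 CPM, and F10 (chr8:13037308-13056676, plus strand) 244 and 396 CPM. All 4 were higher in library 2, where the Plac8 sum that a member had to exceed was higher too. The part of the rule in this gap was not tested. Vcan was found in 87.4% of members in library 1 and 92.3% in library 2, against 0 of 67 and 3.60% (31 of 862) of S100a8-rich cells, which should lack it. The S100a8-rich cells were shallower, with medians of 2159 and 1430.5 UMIs against 9856 and 9820.5 in the members. The Vcan sum was 2092 and 3927 CPM in the members, and it was not particular to them. Among the gates described below, it was 1595 and 1937 CPM in Folr2 cells and 937 and 2070 CPM in Plac8 cells. In Ly6c2 cells it was 2100 and 2452 CPM.

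Chil3 (chr3:106147554-106167564, minus strand) is not used by the rule, but it was among the genes for which these cells were singled out. It had 3783 CPM in library 1 and 3695 CPM in library 2 and ranked 27 and 20 among all genes of the members. The level came from part of the cells. Library 1 members had 0 to 308 UMIs (median 6) and 61 of 87 had any, while library 2 members had 0 to 158 (median 17) and 20 of 26 had any. Of the S100a8-rich cells, 46.3% and 34.9% had a UMI of Chil3, so a single UMI does not set a member apart. Its near copy Chil4 had 0 UMIs in the members of both libraries.

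Bnip3 (chr7:138890836-138909519, minus strand) was at 244 CPM in the members of library 1, against 136 CPM in all other kept cells, and at 132 CPM in those of library 2, against 133 CPM. It was thus higher in the members of library 1 alone.

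Macrophage genes were found in the members of both libraries. Csf1r, the receptor of the macrophage growth factor M-CSF, was at 180 and 250 CPM, Cd68 (a lysosomal protein) at 486 and 473, and Fcgr1 (a high-affinity IgG receptor) at 636 and 1010. Lyz2 (lysozyme) had 9084 and 12710 CPM, ranking 6 and 2, and Apoe (apolipoprotein E) had 6172 and 3145 CPM. Adgre1, which encodes F4/80, was low at 75.4 and 50.1 CPM, and so was the efferocytosis receptor Mertk at 18.6 and 18.2 CPM. The monocyte receptor Ccr2 was at 1244 and 1379 CPM. Summed over the macrophage identity list, the members had 34812 and 28064 CPM, against 26632 and 27967 CPM in cells with Ly6c2 and little C1q, so the list total did not separate the populations in library 2. Origin from monocytes is part of the label and is not measured by RNA levels at a single time.

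Markers of other cell types were summed over each list. The neutrophil list gave 270 and 205 CPM, with 2 and 7 of 13 genes at 0. The dendritic cell list gave 16.3 and 4.55 CPM, with 11 and 14 of 15 genes at 0, and the T or NK cell list 3.48 and 13.7 CPM, with 10 of 11 genes at 0 in each library. The tumour or epithelial list gave 6.96 and 4.55 CPM with 5 and 6 of 7 genes at 0. The platelet list stood higher at 1284 and 464 CPM, with 8 and 7 of 9 genes at 0. That signal was almost all Ppbp, a platelet chemokine precursor, with 1284 and 460 CPM. No member had cycling RNA by the count used, 0 of 87 and 0 of 26, against 4 of 230 and 7 of 253 Folr2 cells.

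The members were set beside 3 populations gated in the same libraries. Folr2 cells, C1q cells with at least 2 UMIs in the Folr2 sum, numbered 230 and 253. Plac8 cells, C1q cells whose Plac8 sum was at least 2 and no lower than the Vcan sum, numbered 26 and 252. Ly6c2 cells, with at most 3 UMIs of C1q, at least 2 of Ly6c2 and at most 1 of the dendritic cell genes Cd209a, Ccr7 and Fscn1, numbered 76 and 256, and Ly6c2 marks classical monocytes. The gates are not the authors' cell types. In library 2, 34 of 253 Folr2 cells held both Xist and Y-linked RNA, against 0 of 26 members, 8 of 252 Plac8 cells and 2 of 256 Ly6c2 cells. The Folr2 cells there also had more RNA, with a median of 21098 UMIs, against 9820.5 in the members. The part of droplets with 2 cells in the Folr2 levels was not tested. A gene was called higher or lower where the members differed at least 2-fold in the same direction in both libraries (log2 ratio of CPM with 0.5 UMIs added), with at least 20 UMIs in each library over both populations. Genes of the gates were left out. These calls describe 2 libraries and are not a test.

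**Figure D2:**
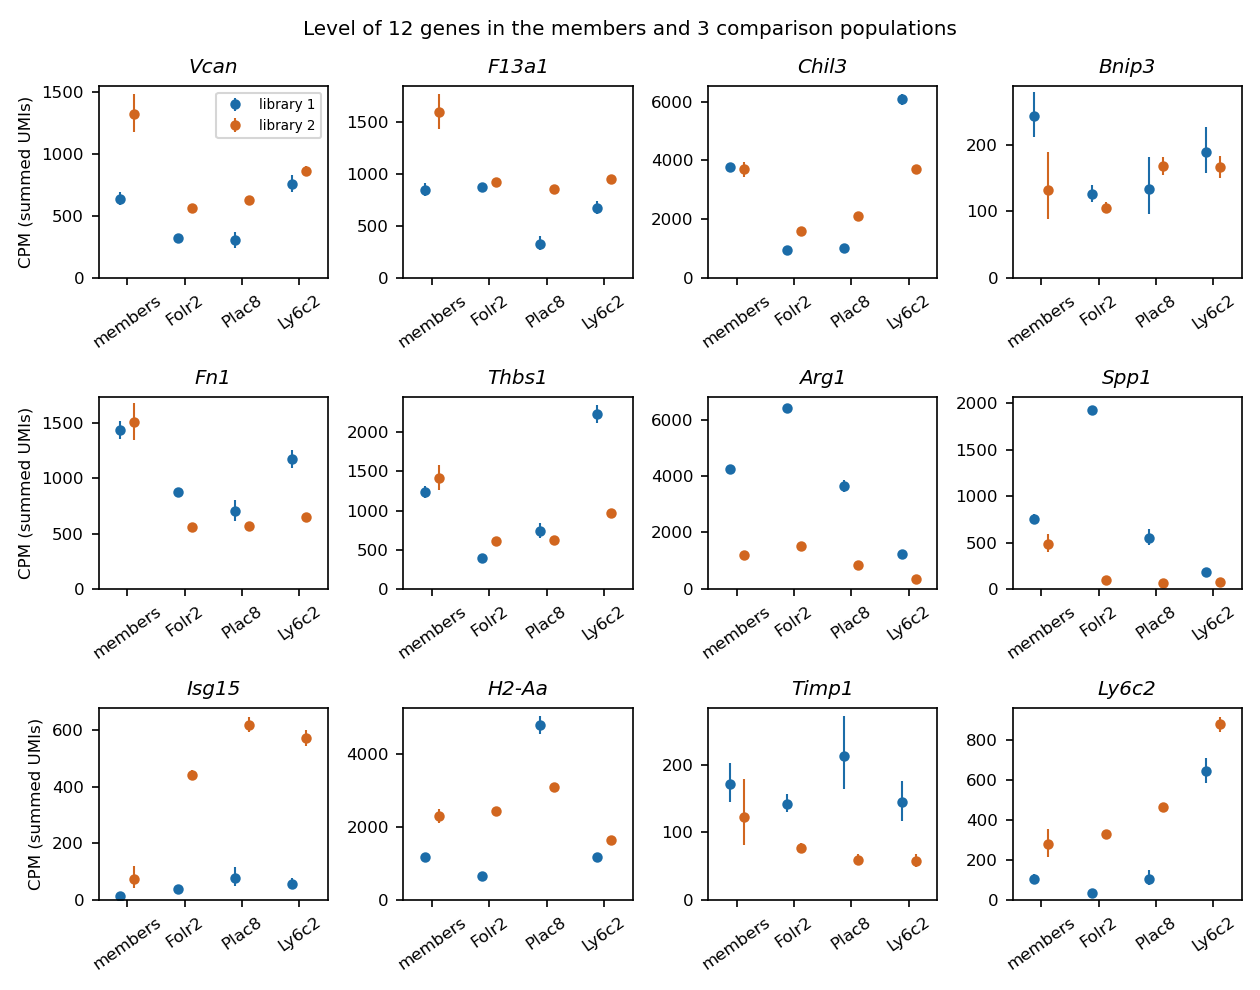
Level in CPM (linear axis from 0) of 12 genes in the members, Folr2 cells, Plac8 cells and Ly6c2 cells, from left to right; each dot is 1 library and each bar its 95% Poisson interval. Chil3 lies at 3783 and 3695 CPM in the members, above the Folr2 and Plac8 cells, while Isg15 is lower in the members than in each other population of the same library.

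Against the Folr2 cells, 39 of 7764 genes (0.502%) were higher in the members and 112 (1.44%) lower. Among the genes higher in the members were Chil3, Thbs1, both formyl peptide receptors and the cystine importer Slc7a11, and among those lower were Ccl8, Lyve1, Timp2 and cell cycle genes. Of the calls, 23 and 32 had ratio intervals that left out 1 in both libraries, and 53 genes were at least 2-fold apart in opposite directions. With the scaled clause, 5 of the 39 and 20 of the 112 were still called. All 39 and all 112 kept the sign of their mean log2 ratio, whose median was 0.89 (1.29 as defined) and -1.02 (-1.64 as defined). The Folr2 cells did not change with the clause, so the kept signs are no separate support. Of the genes named below, Sdc1, Lcn2, Msmo1, Ccl8, Lyve1, Timp2, Ccnd1, Nme4, Calml4, Lpl, Pltp and Cxcl1 were among those still called. Chil3 (mean log2 ratio 1.37), Thbs1 (1.03), Fpr1 (0.78), Fpr2 (0.81) and Cxcl3 (0.89) were not, as they stayed below 2-fold in library 2.

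Chil3 was at 3783 and 3695 CPM in the members, against 941 and 1590 CPM in the Folr2 cells, a mean log2 ratio of 1.61 ± 0.56 (SD, n = 2 libraries). Thbs1, thrombospondin 1, a matrix and platelet glycoprotein, was at 1239 and 1415 CPM in the members, against 399 and 606 CPM (mean log2 ratio 1.43). The values of both genes in the members lay above both values in the Folr2 cells, as did those of 1207 of all 7764 measured genes (15.5%). Thbs1 had a UMI in 76 of 87 and 23 of 26 members, with no cell holding more than 13.5% of the UMIs.

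Of the monocyte identity list, 3 of 21 measured genes were higher (Chil3, Thbs1 and Clec4e, a lectin receptor of damage and microbes) and none lower. Its median log2 ratio was 0.63, against 0.04 over all genes, and 13 of 21 were positive in both libraries with none negative in both. Ccr2 had 1244 and 1379 CPM in the members, against 809 and 888 CPM, below 2-fold. The formyl peptide receptors, by which phagocytes sense bacterial and mitochondrial peptides, were both higher. Fpr1 had 61.5 and 100 CPM in the members, against 30.2 and 26.5 CPM, and Fpr2 had 80.1 and 187 CPM, against 36.1 and 86.6 CPM.

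Slc7a11, the cystine importer that feeds glutathione synthesis, had 173 and 150 CPM in the members, against 30.2 and 72.8 CPM in the Folr2 cells. Mmp8, the neutrophil collagenase, had 55.7 and 77.4 CPM, against 11.4 and 33.3 CPM. Lcn2, which binds siderophores, had 118 and 95.6 CPM, against 41.6 and 48.3 CPM. Mmp8 and Lcn2 also stand on the neutrophil marker list, whose summed level was 270 and 205 CPM in the members, against 175 and 179 CPM in the Folr2 cells. The part of neutrophil RNA in both was not tested.

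Hmgcs1, an early enzyme of cholesterol synthesis, had 37.1 and 63.7 CPM in the members, against 10.1 and 23.7 CPM in the Folr2 cells. In library 2, 10 of its 14 UMIs lay in 1 cell, and without that cell its level was 19.2 CPM. Stard4, a carrier of cholesterol, had 19.7 and 22.8 CPM, against 4.87 and 8.07 CPM. Fdps and Msmo1, enzymes of the same pathway that were picked out after their values were seen, were also among the 39. Sdc1, a heparan sulfate proteoglycan, led the 39 with 12.8 and 18.2 CPM, against 4.87 and 2.92 CPM, but its 4 UMIs of library 2 were in 1 cell. Adora3, an adenosine receptor, had 23.2 and 31.9 CPM, against 8.45 and 10.8 CPM. Vopp1, Slc36a4 (an amino acid transporter) and Pms2 (a mismatch repair protein) complete the 10 highest.

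The gene lowest relative to the Folr2 cells was Ccl8, a monocyte-attracting chemokine. It had 0 UMIs in the members of both libraries, against 48.4 and 193 CPM in the Folr2 cells, at least 13.9-fold and 14.1-fold lower at a floor of 3 counts per library. Lyve1, a hyaluronan receptor of perivascular and serosal macrophages, had 0 UMIs in the members, against 18.8 and 9.28 CPM. That was at least 5.41-fold lower in library 1 and not resolved in library 2, where the floor lies above 9.28 CPM. Both genes mark the macrophage type that the Folr2 clause removes. Timp2, an inhibitor of metalloproteinases related to Timp1, had 13.9 and 9.10 CPM in the members, against 117 and 47.1 CPM. Ms4a7 had 38.3 and 9.10 CPM, against 85.8 and 29.4 CPM.

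The cell cycle list was lower, with 3 of 11 measured genes called (Mki67, Birc5 and Stmn1), none higher, and a median log2 ratio of -1.02. Birc5 (survivin) had 0 UMIs in the members, against 15.3 and 5.50 CPM, which is under the floor and so not resolved in library 2, and Stmn1, a microtubule regulator, had 1.16 and 4.55 CPM, against 42.2 and 15.5 CPM. Cyclin D1 (Ccnd1) had 0 UMIs in the members, which at the floor is at least 2.15-fold and 1.42-fold lower. Nme4, Calml4, Slc45a4 and the ubiquitin ligase Wwp1 were the other 4 of the 10 lowest. Wwp1 had 20.9 and 4.55 CPM, against 74.7 and 66.3 CPM. Lipoprotein lipase (Lpl) and the phospholipid transfer protein Pltp were lower as well, at 36.0 and 4.55 CPM against 79.6 and 41.9 CPM, and at 32.5 and 18.2 CPM against 94.6 and 56.3 CPM. In the heme list, biliverdin reductase B (Blvrb) was lower at 85.9 and 86.5 CPM, against 242 and 326 CPM.

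Of the chemokines, 1 of 16 was higher (Cxcl3) and 4 were lower (Ccl4, Ccl7, Ccl8 and Cxcl1), with a median log2 ratio of -0.23. Cxcl3, a neutrophil attractant, had 1069 and 350 CPM in the members, against 413 and 106 CPM in the Folr2 cells. In library 2 it came from 5 cells, 1 of which held 34 of 77 UMIs. Ccl7 had 417 and 314 CPM, against 1001 and 744 CPM. Ccl6 and Ccl9, the most abundant chemokines here, were below 2-fold, with 11427 and 9752 CPM in the members, against 16397 and 8831 CPM, and 6616 and 5634 CPM, against 7656 and 4865 CPM.

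**Figure D3:**
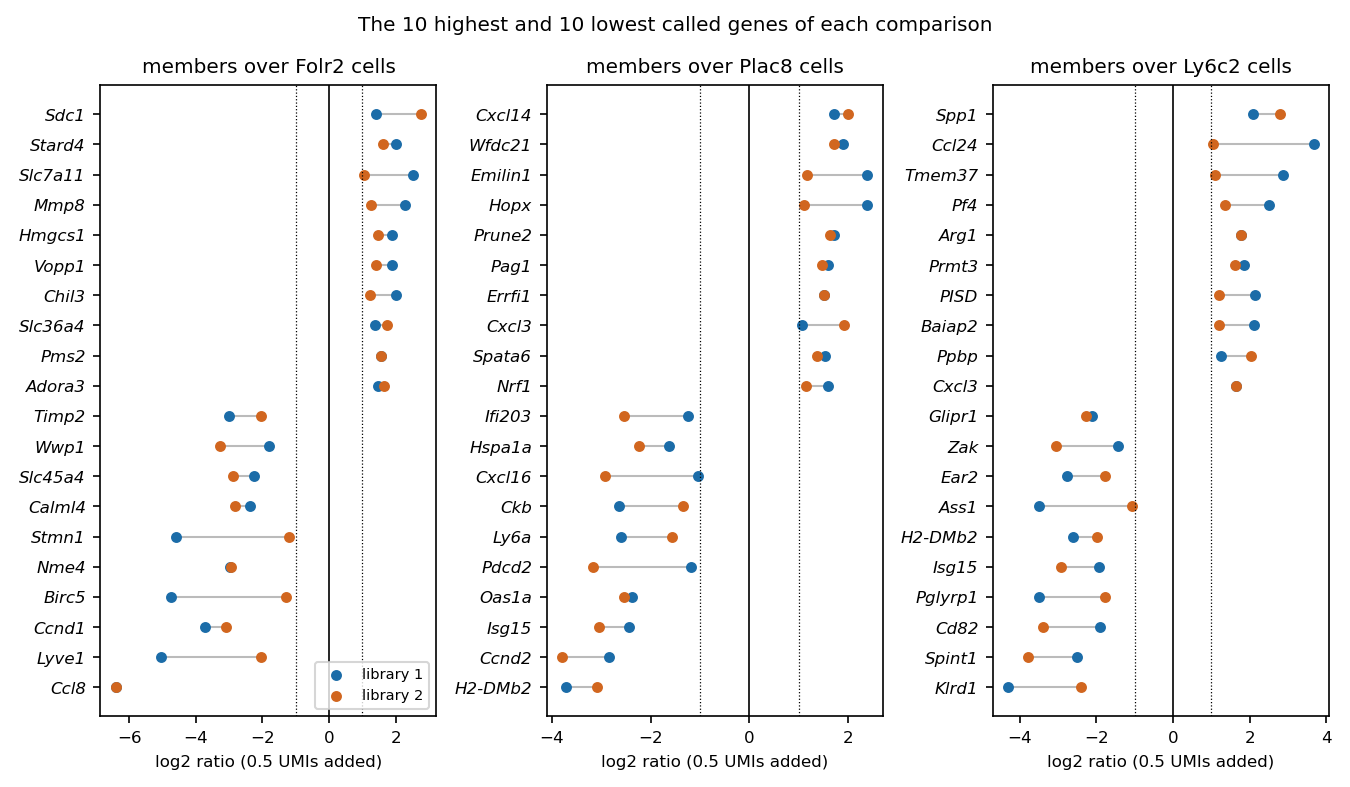
Log2 ratio of CPM, members over each population, of the 10 highest and 10 lowest called genes of each comparison; each dot is 1 library and dotted lines mark 2-fold. Ccl8 and Lyve1 lie lowest against the Folr2 cells and Spp1 and Ccl24 highest against the Ly6c2 cells.

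Glycolysis and hypoxia genes were shifted by less than 2-fold in the comparison with the Folr2 cells. There, 13 of 16 measured glycolysis genes were positive in both libraries and none negative, but 0 passed 2-fold in both. Their median log2 ratio was 0.49, against 0.04 over all genes. The share of all genes positive in both libraries was not counted. Pkm, pyruvate kinase, had 3306 and 4510 CPM in the members, against 2327 and 2734 CPM, and the glucose transporter Slc2a1 had 84.7 and 127 CPM, against 55.2 and 54.1 CPM. Of the hypoxia list, 15 of 22 genes were positive in both libraries and 1 negative, with a median of 0.43, and again 0 passed. Bnip3 had 244 and 132 CPM, against 126 and 106 CPM. The stress of dissociation list moved alike, with a median of 0.44 and 9 of 13 genes positive in both libraries, and its part in the shift was not tested. Medians were smaller against the Plac8 and Ly6c2 cells, at 0.18 and 0.20 for glycolysis and 0.29 and -0.003 for hypoxia. Against the Ly6c2 cells, 9 glycolysis genes were positive in both libraries and 4 negative. Of the hypoxia genes, 4 were positive there and 6 negative, with Pfkfb3 called lower.

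The low-oxygen response acts through the core letters ACGTG, to which the factor HIF binds. In RefSeq promoters (GRCm38.p6, 250 bases before to 50 after the start), on either strand, ACGTG stood in 16 of 21 matched hypoxia genes (76.2%) and 12 of 17 glycolysis genes (70.6%), against 5886 of 27025 genes in all (21.8%). Bnip3 (chr7:138909457-138909756, minus strand) is shown because it was among the genes for which these cells were singled out. Capitals mark its ACGTG, which reads on both strands and so counts as 2 overlapping matches.
Bnip3: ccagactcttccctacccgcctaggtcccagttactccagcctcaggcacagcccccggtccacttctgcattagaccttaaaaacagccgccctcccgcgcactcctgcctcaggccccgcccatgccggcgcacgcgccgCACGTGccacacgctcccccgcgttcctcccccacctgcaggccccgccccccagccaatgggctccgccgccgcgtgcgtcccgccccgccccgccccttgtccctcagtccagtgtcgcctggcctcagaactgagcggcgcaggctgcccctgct
A match is a description of the letters and not a bound site. Both lists were named for a function, so these shares describe the lists and not the members.

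Timp1, the gene of the series title, was at 172 CPM in the members of library 1 and 123 CPM in those of library 2, with a UMI in 36 of 87 and 13 of 26 cells. The Folr2 cells had 142 and 76.8 CPM, the Plac8 cells 214 and 58.9 CPM, and the Ly6c2 cells 144 and 57.4 CPM. Timp1 therefore passed 2-fold in both libraries in none of the 3 comparisons, and only against the Plac8 cells did the libraries differ in sign. Its mean log2 ratio to the Folr2 cells was 0.49, and 0.08 with the scaled clause.

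Of the efferocytosis receptors and bridging molecules, 1 of 15 genes was higher than in the Folr2 cells (Thbs1, a bridge to dying cells) and 1 lower (Mfge8, which binds exposed phosphatidylserine), with a median log2 ratio of 0.02, against 0.04 over all genes. Mfge8 rested on few counts, with 2.32 and 0 CPM in the members, against 7.47 and 5.84 CPM. Stab1, a scavenger receptor, had 82.4 and 72.8 CPM, against 138 and 89.3 CPM. Against the Plac8 and Ly6c2 cells no gene of this list was called, of 11 and 13 measured.

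Against the Plac8 cells, 27 of 4966 genes (0.544%) were higher in the members and 28 (0.564%) lower. The genes lower in the members included 5 of the interferon list and the MHC class II gene H2-DMb2. The genes higher included fibronectin and the chemokines Cxcl3 and Cxcl14. The library 1 side of this comparison rests on 26 Plac8 cells with 299761 UMIs, and only 10 and 18 of the calls had ratio intervals that left out 1 in both libraries. With the scaled clause, 0 of the 27 genes were still called higher, with a median mean log2 ratio of 0.59 (1.31 as defined), and 4 of the 28 lower (H2-DMb2, Ccnd2, Isg15 and Ifi27l2a), with a median of -0.98 (-1.76 as defined). All 55 kept their sign. The values that follow are of the members as defined.

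Fn1, fibronectin, a matrix glycoprotein made by monocytes and macrophages, had 1437 and 1506 CPM in the members, against 704 and 571 CPM in the Plac8 cells, a mean log2 ratio of 1.21 (0.69 with the scaled clause). It had a UMI in all 87 members of library 1 and in 24 of 26 of library 2. The Folr2 cells had 879 and 558 CPM of Fn1, a mean log2 ratio of 1.07, with library 1 below 2-fold. Wfdc21, a small secreted protein of the WAP family, had 240 and 360 CPM, against 63.4 and 110 CPM (mean log2 ratio 1.80, and 1.09 with the scaled clause). Cxcl3 was again higher, at 1069 and 350 CPM, against 510 and 94.0 CPM (1.48, and 0.71 with the scaled clause). Emilin1, an elastic fibre glycoprotein, had 25.5 and 59.2 CPM, against 3.34 and 27.2 CPM, and Cxcl14, a chemokine, had 26.7 and 27.3 CPM, against 6.67 and 7.32 CPM. Cxcl14 lay in 5 of 87 and 2 of 26 members, and its mean log2 ratio of 1.85 was 0.09 with the scaled clause, where the libraries differed in sign. Errfi1 was at 1.51, and 0.08 with the scaled clause. Hopx, Prune2, Pag1, Errfi1 (which inhibits EGF receptor signalling), Spata6 and Nrf1 (a regulator of mitochondrial genes) complete the 10 highest.

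The interferon response list had 5 of 14 measured genes lower than in the Plac8 cells (Isg15, Oas1a, Irf7, Ly6a and Xaf1) and none higher, with a median log2 ratio of -1.17, against 0.05 over all genes. Isg15, a ubiquitin-like protein among the most strongly interferon-induced, had 13.9 and 72.8 CPM in the members, against 76.7 and 621 CPM. Oas1a, which makes 2'-5' oligoadenylates on sensing double-stranded RNA, had 8.13 and 22.8 CPM, against 43.4 and 145 CPM. Irf7, a transcription factor that amplifies the response, had 29.0 and 95.6 CPM, against 103 and 280 CPM. Ly6a had 16.3 and 268 CPM, against 100 and 805 CPM. In each of the 4 genes the members were below the Plac8 cells of their own library, and both populations had more in library 2.

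The interferon list was also lower against the other populations. Against the Folr2 cells 4 of 20 genes were lower, none higher, with a median of -0.89, and against the Ly6c2 cells 5 of 14, none higher, with a median of -1.04. Isg15 was at 39.0 and 441 CPM in the Folr2 cells and 54.7 and 573 CPM in the Ly6c2 cells. Gbp2, an interferon-induced GTPase, had 16.3 and 542 CPM in the members, against 60.8 and 1205 CPM in the Ly6c2 cells.

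The rule itself bears on this list. Members had to hold fewer UMIs of the Plac8 sum, with Zbp1, Rtp4, Mnda and Ms4a4c in it, than of the Vcan sum. The rule set no ceiling, and the Plac8 sum was 2448 CPM in library 2 members and 1955 CPM in library 1 Plac8 cells. With the scaled clause the interferon response medians were -0.45 against the Folr2 cells, -0.75 against the Plac8 cells and -0.48 against the Ly6c2 cells, and 0, 1 and 0 genes were called lower. With the Vcan sum alone, whatever the Plac8 sum, 110 and 275 cells qualified, and the interferon response medians were 0.13 against the Folr2 cells and -0.29 against the Ly6c2 cells, with 0 genes called in either. Isg15 then had a mean log2 ratio of -0.02 to the Folr2 cells, against -1.99 as defined. The cells that qualified without the Plac8 sum were 110 of 114 and 275 of 278 C1q, Folr2-low cells, so they were not a set rich in Vcan. In library 2, 249 of the 275 were cells that the Plac8 clause removed. The part of the Plac8 clause in the lower interferon level was not tested. That level is not reported as a property of C1q cells rich in Vcan.

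The promoters of this list carry a repeated GAAA that interferon-activated factors bind. The letters GAAA, any 2 bases and GAAA again, searched on both strands and chosen after the values were seen, stood in 16 of 30 matched interferon genes (53.3%), against 1079 of 27025 genes in all (3.99%). These 3 RefSeq promoters (GRCm38.p6) are shown because their genes were lower in at least 1 comparison, with the matches in capitals. They are Isg15 (chr4:156200769-156201068, minus strand), with 3 overlapping matches, Oas1a (chr5:120907476-120907775, minus strand), with 2, and Gbp2 (chr3:142620413-142620712, plus strand), with 1 that reads on the other strand.
Isg15: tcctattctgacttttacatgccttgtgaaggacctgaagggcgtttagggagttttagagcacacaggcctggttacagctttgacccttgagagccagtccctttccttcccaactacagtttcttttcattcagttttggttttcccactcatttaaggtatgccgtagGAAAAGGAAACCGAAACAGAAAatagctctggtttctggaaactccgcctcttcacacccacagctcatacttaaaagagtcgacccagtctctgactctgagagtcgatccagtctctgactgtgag
Oas1a: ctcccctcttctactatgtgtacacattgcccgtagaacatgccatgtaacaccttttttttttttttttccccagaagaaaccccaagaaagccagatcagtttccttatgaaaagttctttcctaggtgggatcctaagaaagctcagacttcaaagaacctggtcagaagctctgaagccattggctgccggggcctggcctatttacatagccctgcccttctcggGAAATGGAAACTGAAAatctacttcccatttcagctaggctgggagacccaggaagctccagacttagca
Gbp2: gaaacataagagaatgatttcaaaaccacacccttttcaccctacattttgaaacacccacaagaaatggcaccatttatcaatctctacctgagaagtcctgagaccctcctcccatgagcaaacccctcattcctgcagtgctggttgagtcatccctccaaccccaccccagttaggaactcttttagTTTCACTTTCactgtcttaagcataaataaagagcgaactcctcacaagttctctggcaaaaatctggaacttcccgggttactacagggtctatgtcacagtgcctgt
The share of list genes with these letters likewise describes the list and not the members. The 3 genes share the letters and differed in level, Gbp2 being at 542 CPM in library 2 members and Isg15 at 72.8 CPM. Oas1a has a near copy, Oas1g, with 1 and 0 UMIs in the members, which the counting could have split from it.

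MHC class II genes, which present peptides to helper T cells, were negative against the Plac8 cells in both libraries for 9 of 9 measured genes, with a median log2 ratio of -1.07, and still for 9 of 9 with the scaled clause. In library 1 alone 7 of 9 were at least 2-fold lower, as were 152 of all 4966 measured genes. The list median was -1.70 in library 1, against -0.41 in library 2. How many of all genes were negative in both libraries was not counted. H2-Aa had 1183 and 2294 CPM in the members, against 4794 and 3093 CPM in the Plac8 cells, and the invariant chain Cd74 had 4032 and 8869 CPM, against 13114 and 9729 CPM. H2-DMb2, a subunit of the peptide exchanger H2-DM, was the single gene called, with 10.4 and 0 CPM, against 143 and 19.0 CPM. At the floor its 0 in library 2 is at least 1.39-fold lower, short of 2-fold. The dendritic cell list summed to 16.3 and 4.55 CPM in the members and to 183 CPM in the library 1 Plac8 cells. The part of dendritic cells in the Plac8 gate was not tested. Against the Folr2 cells the MHC class II median was 0.39, and 0 of 9 genes were called.

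Other genes lower than in the Plac8 cells were cyclin D2 (Ccnd2), with 17.4 and 4.55 CPM in the members, against 127 and 94.3 CPM, and Cxcl16, a scavenger receptor and chemokine, with 60.4 and 4.55 CPM, against 123 and 51.8 CPM. Runx3, a transcription factor, had 20.9 and 4.55 CPM, against 46.7 and 34.0 CPM, and it was the single gene called among 18 measured myeloid transcription factors. Pdcd2, creatine kinase B (Ckb), the heat shock protein Hspa1a and the interferon-induced Ifi203 complete the 10 lowest. In library 2 members Pdcd2 and Hspa1a had 0 UMIs. At the floor Pdcd2 is at least 1.48-fold lower there, and Hspa1a, against 10.5 CPM, is not resolved.

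**Figure D4:**
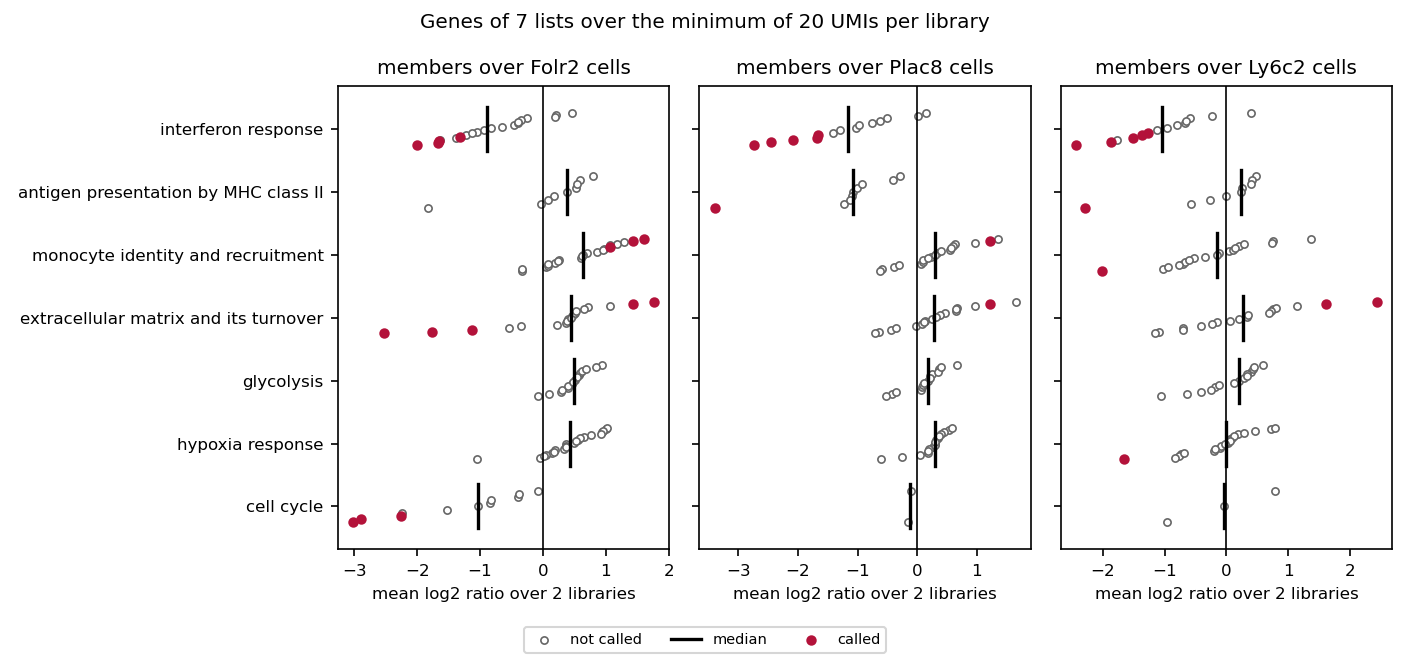
Mean log2 ratio of CPM, members over each population, of every measured gene of 7 lists (filled where called), with the list median as a bar; a value of 0 means equal levels. The median of the interferon list lies below 0 in all 3 comparisons, at -0.89, -1.17 and -1.04, and the MHC class II list lies below 0 against the Plac8 cells, with a median of -1.07.

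Against the Ly6c2 cells, 36 of 5572 genes (0.646%) were higher in the members and 60 (1.08%) lower. The genes higher included Arg1, Spp1, Pf4 and Mrc1, and those lower included Klrd1 and 5 genes of the interferon list. The gate fixes low C1q and high Ly6c2 in the Ly6c2 cells, and Ly6c2 was at 104 and 278 CPM in the members, against 646 and 878 CPM. Of the calls, 18 and 35 had ratio intervals that left out 1 in both libraries. With the scaled clause, 6 of the 36 and 9 of the 60 were still called, with medians of the mean log2 ratio of 1.04 (1.41 as defined) and -1.10 (-1.50 as defined), and all 96 kept their sign. Arg1 (1.74), Pf4 (1.96), Mrc1 (1.40), Tmem37, PISD, Klrd1, Spint1, Pglyrp1, Il1rn, Ass1, Ear2 and C3 were among them, while Spp1 (1.63), Ecm1 (1.38), Cd63 (1.02) and Cxcl3 (0.98) were not.

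Arg1, arginase 1, which breaks down arginine and marks alternatively activated and suppressive myeloid cells, had 4260 and 1192 CPM in the members, against 1246 and 349 CPM in the Ly6c2 cells. That was 3.42-fold in each library, with a mean log2 ratio of 1.77. In library 2, 11 of 26 members held it, and 1 of them had 79 of 262 UMIs. Folr2 cells had more Arg1 than the members, at 6403 and 1506 CPM, below 2-fold.

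Pf4, platelet factor 4, a chemokine also made by macrophages, had 8046 and 2471 CPM in the members, against 1422 and 964 CPM. In library 2, 1 cell held 223 of its 543 UMIs, and without it the level was 1529 CPM. The scavenger receptor Mrc1 had 159 and 237 CPM, against 44.1 and 99.3 CPM, Ecm1, a matrix glycoprotein, had 647 and 405 CPM, against 178 and 158 CPM, and the tetraspanin Cd63 had 166 and 100 CPM, against 74.5 and 32.5 CPM. Of 20 measured macrophage identity genes, 4 were higher (Mrc1, Cd63, Spp1 and Pf4) and none lower, with a median log2 ratio of 0.23.

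Spp1, osteopontin, a secreted phosphoprotein, led the genes higher than in the Ly6c2 cells, with 752 and 487 CPM in the members, against 178 and 70.8 CPM. It rested on few cells, since 1 member held 236 of 648 UMIs in library 1 and 1 held 71 of 107 in library 2. Without those cells it was at 485 and 172 CPM, still above the Ly6c2 cells of the same library. Ccl24, an eosinophil attractant, had 356 and 132 CPM, against 27.4 and 64.9 CPM, and 1 cell in each library held 129 of 307 and 15 of 29 UMIs. Without its cell, library 2 was at 67.2 CPM, close to the Ly6c2 cells. Ppbp, with 1284 and 460 CPM, against 538 and 112 CPM, had 96 of its 101 library 2 UMIs in 1 member, and 24.0 CPM without it. Tmem37, Prmt3 (an arginine methyltransferase), the entry listed as PISD, Baiap2 and Cxcl3 complete the 10 highest.

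Among the genes lower than in the Ly6c2 cells were Klrd1, the NK cell receptor CD94, with 1.16 and 0 CPM in the members, against 33.4 and 11.9 CPM, where library 2 lies under the floor and is not resolved, and Pglyrp1, which binds bacterial peptidoglycan, with 2.32 and 9.10 CPM, against 31.9 and 38.8 CPM. Il1rn, the interleukin 1 receptor antagonist, had 9.29 and 4.55 CPM, against 34.9 and 31.3 CPM, and Pfkfb3, a driver of glycolysis, had 5.80 and 9.10 CPM, against 27.4 and 25.3 CPM. Spint1, Cd82, Isg15, H2-DMb2, Ass1 (which rebuilds arginine from citrulline), Ear2, Zak and Glipr1 complete the 10 lowest. Of these, H2-DMb2 had 0 UMIs in library 2 members, against 8.71 CPM, which is under the floor and so not resolved there. The T or NK cell list summed to 7.597 and 192 CPM in the Ly6c2 cells, against 3.48 and 13.7 CPM in the members. The dendritic cell list, which holds Klrd1 and H2-DMb2, summed to 120 and 49.9 CPM in the Ly6c2 cells, against 16.3 and 4.55 CPM. The part of lymphocytes and dendritic cells in the Ly6c2 gate was not tested.

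Chil3 was not called against the Ly6c2 cells. It was at 3783 and 3695 CPM in the members, against 6078 and 3700 CPM. Of the genes of the rule, given as a description, Vcan was at 642 and 1329 CPM, against 760 and 867 CPM, and F13a1 at 849 and 1597 CPM, against 673 and 950 CPM. Thbs1 differed in sign, with 1239 and 1415 CPM in the members, against 2235 and 969 CPM. Of 19 measured monocyte identity genes, none was higher, with a median log2 ratio of -0.15. The order of Chil3 in library 1 was Ly6c2 cells, members, Plac8 cells and Folr2 cells, and in library 2 the Ly6c2 cells and members lay within each other's counting error.

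The remaining lists held few calls. Complement genes had 0 of 9 and 0 of 6 called against the Folr2 and Plac8 cells, and 1 of 7 lower than in the Ly6c2 cells (C3). Coagulation genes outside the rule had 1 of 9 called against the Folr2 cells (Thbs1), and 0 of 5 and 0 of 6 against the Plac8 and Ly6c2 cells. Among inflammatory cytokines and their regulators, Trem1, a receptor that amplifies inflammation, was higher than in the Folr2 cells, with 62.7 and 72.8 CPM, against 27.6 and 29.2 CPM. Il1b differed more between libraries than between populations, with 44.1 and 332 CPM in the members, against 35.1 and 222 CPM in the Folr2 cells, and 36 of its 73 UMIs in library 2 members lay in 1 cell. Vegfa, the vascular growth factor, was at 8.13 and 22.8 CPM, against 5.20 and 13.9 CPM, and the cytokine Il10 at 1.16 and 4.55 CPM. Gpnmb, a marker of lipid-laden macrophages, had 0 UMIs in the members of both libraries.

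Within the members, cells were ordered by the share of UMIs in Vcan, F13a1, F10 and Ms4a8a and divided into 3 groups (tertiles) of 29 cells each in library 1 and of 9, 9 and 8 cells in library 2, from low to high. These genes made up 967, 1967 and 3303 CPM in the tertiles of library 1 and 2501, 4022 and 5671 CPM in those of library 2. Median depth was 9464, 10343 and 9527 UMIs in library 1 and 10269, 10415 and 8250.5 in library 2. In library 2 the high tertile held cells of only 646, 784 and 2956 UMIs, and the low tertile cells of 830, 2306 and 3296 UMIs. The summed CPM of these tertiles therefore rests mainly on their deeper cells. The cells of a library are not replicates of a condition, so the tertiles are a description.

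In the high tertile, 6 of 977 genes (0.614%) were at least 2-fold above the low tertile in both libraries and 5 (0.512%) at least 2-fold below. Among the genes above it were Ly6c2, Hp and the granule protease gene Prtn3. Ly6c2 had 32.0, 62.2 and 217 CPM in the low, middle and high tertile of library 1, and 194, 215 and 499 CPM in library 2. Hp, haptoglobin, which binds free hemoglobin, had 302, 546 and 921 CPM, and 622, 719 and 1293 CPM. Il1r2, a decoy receptor of interleukin 1, had 128, 138 and 567 CPM, and 111, 322 and 351 CPM.

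Prtn3, proteinase 3, a granule protease of early myeloid cells, had 35.6, 107 and 117 CPM, and 69.1, 96.5 and 647 CPM in library 2. Of its library 2 UMIs, 20 of 49 lay in 1 cell. Mcemp1, a membrane protein, had 263, 325 and 536 CPM, and 263, 536 and 573 CPM, and Grina had 49.8, 128 and 127 CPM, and 111, 139 and 240 CPM. Chil3 was not called, with 1330, 3467 and 6468 CPM in library 1 and 2902, 4086 and 4083 CPM in library 2. All these genes were lowest in the low tertile of both libraries.

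MHC class II genes made up 4 of the 5 genes at least 2-fold below. H2-Aa had 2453, 982 and 155 CPM in the low, middle and high tertile of library 1, and 2985, 2231 and 1478 CPM in library 2. H2-Ab1 had 2759, 1258 and 234 CPM, and 4809, 2413 and 2161 CPM, and H2-Eb1 had 1973, 660 and 68.7 CPM, and 2943, 1555 and 757 CPM. H2-DMa had 263, 124 and 51.6 CPM, and 525, 193 and 240 CPM, so its middle tertile was the lowest in library 2. These genes were concentrated in few cells. A single member of library 1 held 205 of 1019 UMIs of H2-Aa, 252 of 1208 of H2-Ab1 and 199 of 766 of H2-Eb1. In library 2, 155 of 504, 195 of 690 and 123 of 399 lay in 1 member. The median member had 0.5 to 2 UMIs of each, so the CPM of a tertile need not be that of its typical cell. Cd74 went the same way without passing 2-fold in library 2, with 7933, 3612 and 681 CPM, and 11303, 8118 and 6909 CPM.

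Spp1 was the fifth gene, with 1362, 512 and 402 CPM in library 1, and 995, 375 and 0 CPM in library 2, where 1 cell held 71 of 107 UMIs. C1q itself, which the rule sets, was at 5138, 4832 and 4221 CPM in library 1 and 4905, 4215 and 4267 CPM in library 2. The Plac8 sum was at 363, 591 and 1072 CPM, and 1796, 1963 and 4157 CPM. Members with a low Vcan sum could hold only a lower Plac8 sum, by the rule, and the part of the rule in the order of the tertiles was not tested. With the members in 2 groups instead of 3, 3 genes were called higher and 1 lower.

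**Figure D5:**
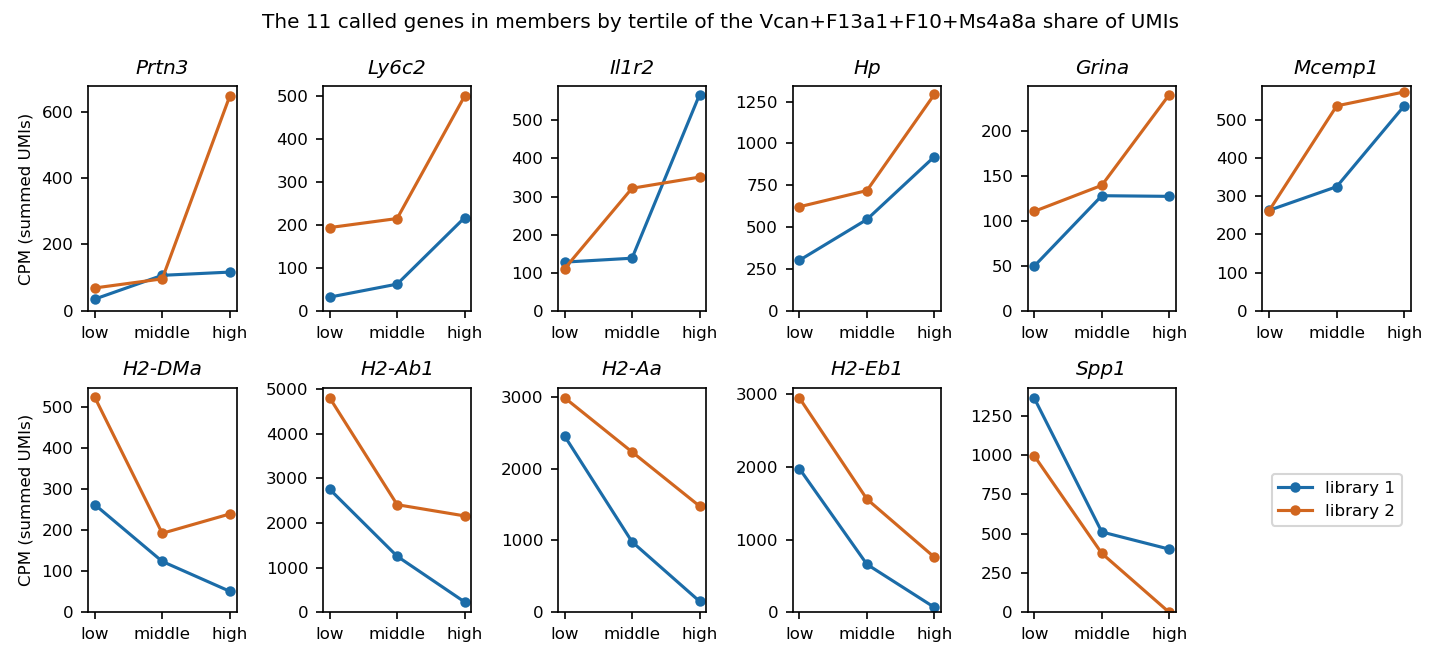
Level in CPM of the 11 genes at least 2-fold apart between the high and the low tertile of the members by their share of Vcan, F13a1, F10 and Ms4a8a UMIs; tertiles run from low to high and each line is 1 library. Ly6c2 and Hp are highest in the high tertile of both libraries, and H2-Aa, H2-Ab1 and H2-Eb1 are lowest there.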

How the data were processed

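The authors deposited UMI counts per gene and cell barcode for each library, not normalized and holding only called cells. Per the submitters' processing notes, Cell Ranger 3.0.1 and the build mm10 were used. The annotation release is not given in the sources used here, nor is strand handling, and near-identical or overlapping genes could share reads. Library 2 also holds counts of 2 antibody tags that the labels do not explain. The sources used here do not say whether doublets were removed.

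From the 27998 listed genes, barcodes below 300 genes or above 10% mitochondrial UMIs (25 of 1141 and 61 of 2908) were removed. UMIs were summed per population and library and given as CPM, UMIs per 1e6 UMIs of that population. Log2 ratios are of CPM with 0.5 UMIs added, within a library. With 2 libraries of 1 group and populations gated on their own counts, no test was run and no p-value is given. Intervals are exact at 95% (Poisson for levels, binomial for shares and ratios), floors are 3 counts per library, and both cover counting error only. Named genes are the 10 highest and 10 lowest mean log2 ratios among the genes called in each comparison, without the genes of the gates, predicted and mitochondrial genes, and list members may be named besides. The members and lists were chosen with earlier results of these data known. Cebpd and Ifi209 of the lists were not analysed here. A doublet caller (scanpy 1.11.5, Scrublet method) marked 6 of 1116 and 1 of 2847 cells, 0 of them members; so few marked cells in library 2 say little about doublets there.

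Alternatives were other scalings (TMM of edgeR 4.0.16, size factors of DESeq2 1.42.0, in R 4.3.3, used for scaling alone), other values added, minimum counts, gates and depths, and each library alone. The summing and calling steps were tested on simulated data. Sequences are from RefSeq (GRCm38.p6) and loci from GENCODE (GRCm38). Python 3.11.15, numpy 2.4.6, scipy 1.17.1, pandas 2.3.3 and matplotlib 3.10.9 were used.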

Additional observations from a re-analysis of the deposited data

Results flagged for a closer look

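Library 2 carries counts of 2 antibody tags, BC2 and BC3, that no label explains and no comparison uses. All 26 members of library 2 had more UMIs of BC2 than of BC3, with medians of 4742.5 and 663 UMIs, while over all kept cells of the library 1146 lay on the BC2 side and 1701 on the BC3 side. The other C1q populations lay mostly on the BC2 side too, with 251 of 253 Folr2 cells and 243 of 252 Plac8 cells, as did 221 of 256 Ly6c2 cells.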

How the results depend on the processing

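The number of members, 113 (87 and 26), was 63 (52 and 11) with at least 30 UMIs of C1q. Added after the data were seen, the scaled clause gave 208 (137 in library 2) and no Plac8 clause 385 (275 in library 2). Alone, the libraries gave 26 to 87.

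Genes called against the Folr2 cells, 39 higher and 112 lower, numbered 102 and 24 with 2 UMIs added, 573 higher with a minimum of 1 UMI, 22 and 43 with a minimum of 50, and 9 and 13 with all cells thinned to 2000 UMIs before the rule. They numbered 260 and 328 at 1.5-fold, 7 and 38 with the scaled clause (5 and 20 of them among the main calls) and 6 and 35 without the Plac8 clause. Of the 9 and 13 called with thinned cells, 5 and 5 were among the main calls. With 1 library alone the calls ranged from 191 to 780 higher and from 441 to 956 lower.

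Against the Plac8 cells, 27 and 28 were 267 and 195 with a minimum of 1 UMI, 7 and 11 with 50, 10 and 18 thinned, 147 and 115 at 1.5-fold, and 1 and 7 with the scaled clause (0 and 4 among the main calls). Of the 10 and 18 called with thinned cells, 0 and 4 were among the main calls. Alone, the libraries gave 276 to 569 and 155 to 735.

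Against the Ly6c2 cells, 36 and 60 were 620 and 222 with a minimum of 1 UMI, 16 and 21 with 50, 207 and 194 at 1.5-fold, 7 and 13 with the scaled clause (6 and 9 among the main calls) and 5 and 8 without the Plac8 clause, with 34 lower with 2 UMIs added. With all cells thinned to 2000 UMIs before the rule, 47 and 61 were called, of which 12 and 13 were among the main calls. Alone, the libraries gave 226 to 497 and 213 to 586.

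By tertiles, 6 higher and 5 lower were 2 higher with a minimum of 50 UMIs, 3 lower with 2 UMIs added, and 3 and 1 with the members in 2 groups instead of 3. Alone, the libraries gave 45 to 126 and 69 to 159.

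Of 60 named results, 56 kept their direction under every alternative run for them, 14 against the Folr2 and Ly6c2 cells and 13 against the Plac8 cells, which do not exist without the Plac8 clause. Those that turned, all with cells thinned before the rule, were Ccnd1 against the Folr2 cells (0.20), Wfdc21 (-0.16) and Spata6 (-0.24) against the Plac8 cells, and H2-DMb2 against the Ly6c2 cells (1.14). The cause was not tested. Thinning leaves 35 and 4 of the members in the gate. Most alternatives reuse the same cells, and the named genes were picked for large ratios, so a kept direction is little support. Adding 2 UMIs moved the median log2 ratio of all genes against the Folr2 cells by 0.19. The 26 members of library 2 set the limit for low genes, where 1 UMI is 4.55 CPM. Each ratio was taken within its library, so the populations were paired by library throughout.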
